A study of Homo sapiens with 4 samples.

Results

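Oncofetal genes are active in the fetal liver, are largely silenced in the adult organ and are switched on again in many liver tumours. The 10 genes described here are AFP, GPC3, DLK1, IGF2, H19, PEG10, LIN28B, IGF2BP1, IGF2BP3 and SALL4, taken from a list of fetal liver genes known to return in liver cancer. They are 10 of the 46427 gene numbers in the deposited tables, and each of them stands on 1 line of every table.

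RNA was sequenced from Huh7 and HepG2, established human liver tumour lines that the labels both call hepatocellular carcinoma (HCC). Cells received a control siRNA without a target (NC-siRNA, genotype labelled WT) or COP1-siRNA (genotype labelled COP1 Knockdown), at 20 nM, and were collected 48 h later. There was 1 library for each line and siRNA, 4 in all, and COP1 was targeted with a single siRNA sequence. COP1 encodes an E3 ubiquitin ligase, and the comparison asks what its loss does to gene expression in HCC cells. Levels are given in TPM, a measure scaled for transcript length whose values sum to 1000000 in a library. COP1 itself (gene 64326) stood at 19.7 and 6.18 TPM in Huh7 with NC-siRNA and COP1-siRNA, and at 26.9 and 16.1 TPM in HepG2. All 9 hepatocyte markers examined, ALB among them, were at 1 TPM or more in every library, with summed levels of 12902 and 11312 TPM in Huh7 and 2305 and 2689 TPM in HepG2. Of 4 leukocyte markers, PTPRC and CD3E were listed at 0 in all 4 libraries, while CD68 lay between 15.6 and 58.2 TPM and LYZ between 119 and 192 TPM, with sums of the 4 from 166 to 207 TPM.

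The genes fall into 4 kinds. AFP encodes the main plasma protein of the fetal liver, and GPC3 and DLK1 encode proteins of the cell surface. IGF2, H19 and PEG10 are imprinted, which means that 1 parental copy is normally silent, and IGF2 is a fetal growth factor. LIN28B, IGF2BP1 and IGF2BP3 encode RNA-binding proteins, and SALL4 encodes a zinc finger transcription factor of embryonic stem cells.

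LIN28B blocks the maturation of the let-7 microRNAs, and let-7 in turn represses LIN28B and other fetal mRNAs through sites in their 3′ untranslated regions (3′ UTRs). The mature let-7a is shown because its seed, the bases 2 to 8 in capitals that pair with a target, is carried by all 9 let-7 and miR-98 sequences of RefSeq searched.
hsa-let-7a-5p: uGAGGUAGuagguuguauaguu
The seed pairs with CTACCTC, searched on the transcript strand in 1 annotated transcript per gene of GENCODE 29 on GRCh38. CTACCTC occurred 4 times in the 3′ UTR of LIN28B, 4 times in that of IGF2BP1, and once each in those of IGF2BP3 and SALL4. It did not occur in the annotated 3′ UTRs of AFP, GPC3, DLK1, IGF2 or PEG10, and H19 has none because it is a non-coding RNA. Of all 18911 genes with a 3′ UTR, 8.61% held CTACCTC at least once and 0.920% at least 2 times. These shares take no account of length, and the 3′ UTRs of LIN28B and IGF2BP1 were 4549 and 6206 bases long. One match of each gene is shown with 10 bases on either side, the match in capitals. In all 4 of them an A follows the match, as it did in 3.27% of genes. Over all their matches, an A followed 2 of the 4 in LIN28B and 3 of the 4 in IGF2BP1.
LIN28B, chr6:105078817-105078843, plus strand: gttgcaaagtCTACCTCatgcaagtat
IGF2BP1, chr17:49051066-49051092, plus strand: gcgaagtaaaCTACCTCaaggtatgaa
IGF2BP3, chr7:23311786-23311812, minus strand: ttttactcaaCTACCTCaggtattcag
SALL4, chr20:51782914-51782940, minus strand: tttaatttatCTACCTCatttattttt

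The 10 genes differed widely in level. With NC-siRNA in Huh7 the order was AFP, GPC3, IGF2, LIN28B, PEG10, IGF2BP1, IGF2BP3, DLK1, SALL4 and H19, and it was the same with COP1-siRNA. In HepG2 with NC-siRNA AFP and GPC3 again led, followed by IGF2BP1, PEG10, LIN28B, IGF2, IGF2BP3, DLK1, H19 and SALL4. With COP1-siRNA, LIN28B stood below IGF2 and IGF2BP3 in HepG2. No condition had a second library, so the spread within a condition could not be measured, and the order of neighbours of similar level, such as PEG10 and LIN28B in HepG2, is uncertain. The summed level of the 10 genes was 8633 and 7867 TPM in Huh7 with NC-siRNA and COP1-siRNA, and 824 and 903 TPM in HepG2. This was 0.863%, 0.787%, 0.0824% and 0.0903% of all TPM. AFP made up most of the sum in Huh7.

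**Figure D1:**
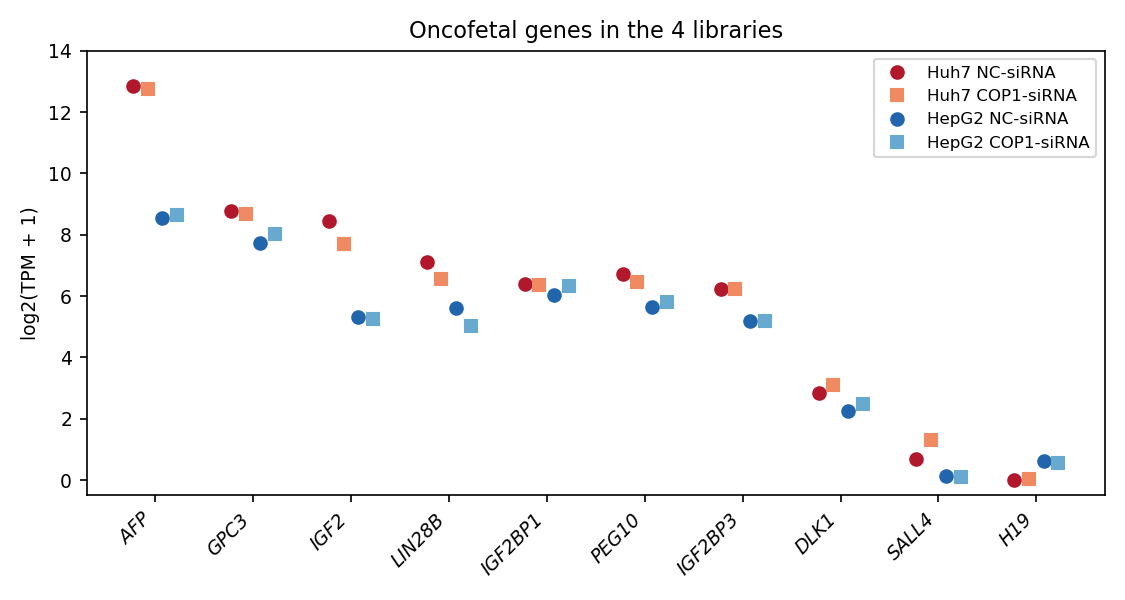
Level of each oncofetal gene in the 4 libraries, as log2(TPM + 1), with genes ordered by mean TPM. Red points are Huh7 and blue points HepG2, circles are NC-siRNA and squares COP1-siRNA, and each point is 1 library. AFP stood at 7444 and 6907 TPM in Huh7 and at 370 and 399 TPM in HepG2, while H19 stayed under 1 TPM in every library.

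Changes are given as log2((TPM + 1)/(TPM + 1)), which understates the change of low genes. A gene was compared between 2 libraries where at least 1 of them had a TPM of 1 or more, and 2-fold was the threshold. There is no test within a pair of libraries. With COP1-siRNA, 0 of the 9 oncofetal genes compared in Huh7 passed 2-fold, where 1.08% of the 13000 genes compared did so in either direction. In HepG2, 0 of 8 passed, against 0.934% of 14456 genes. Their median log2 fold change was −0.09 in Huh7 and 0.13 in HepG2, beside medians of −0.001 and −0.008 over all genes compared. In Huh7 3 genes were higher and 6 lower with COP1-siRNA, and in HepG2 5 were higher and 3 lower. SALL4 was 1 of the 3 higher in Huh7. It was compared there only because its COP1-siRNA library reached 1 TPM, which fixed its direction. The lowest values were those of IGF2 and LIN28B in Huh7 and of LIN28B in HepG2. COP1, the target of the siRNA, was at −1.53 in Huh7 and −0.71 in HepG2, so in HepG2 it too lay under 2-fold.

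The 4 libraries were also fitted together with limma, with the line and the siRNA as terms, so that the lines serve as the repeats of the siRNA contrast. This fit has 1 residual degree of freedom per gene and borrows 4.84 more from the spread of all genes. At a Benjamini-Hochberg adjusted p under 0.05, limma called 0 of the 9 oncofetal genes for the siRNA, and 0% of all 15486 genes fitted. The smallest adjusted p of any gene was 0.0775, and 1670 genes had an unadjusted p under 0.05. COP1, the target of the siRNA, was not called by limma either (adjusted p = 0.184). The lack of a call therefore does not show that a gene was unchanged. For 1 gene alone, a permutation of 2 pairs cannot give a two-sided p under 0.5.

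Between the lines the oncofetal genes differed far more. Huh7 was at least 2-fold higher for 6 of the 8 genes compared with NC-siRNA and for 5 of the 9 compared with COP1-siRNA, and none was 2-fold lower. SALL4 was compared with COP1-siRNA only because its Huh7 library reached 1 TPM, which fixed its direction, and without it the count was 4 of 8. Over all genes, 14.7% and 14% were at least 2-fold higher in Huh7, and 27.9% were at least 2-fold lower with NC-siRNA. The median of the oncofetal genes was 1.06 with NC-siRNA and 1.04 with COP1-siRNA. The second value includes SALL4, at 1.18, and is lower without it. The median of all genes was −0.37 and −0.35, so most genes read lower in Huh7 on this scale. Relative to those medians each oncofetal gene stands higher by the same amount, IGF2BP1 for example at 0.72 and 0.38 in place of 0.35 and 0.03. In the limma fit 7 of the 8 genes other than SALL4 were called between the lines, all of them higher in Huh7, against 27.3% of 15486 genes. In either direction limma called 12156 of the 15486, 7933 of them lower in Huh7, so a call alone sets no gene apart. For 9 of the 10 genes both Huh7 libraries were above both HepG2 libraries, which held for 31% of the genes fitted. H19 was the exception, and it was not among the genes fitted. SALL4 was 1 of the 9 and reached 1 TPM in 1 library only. Both H19 and SALL4 are too low to order the lines. Each line is represented by 2 libraries under different siRNAs. The error of the fit comes from the difference in siRNA response between the lines. The limma standard errors and p-values of the line differences, here and below, therefore measure no spread between independent cultures of a line. In bulk RNA, fewer expressing cells and less RNA per cell cannot be told apart.

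**Figure D2:**
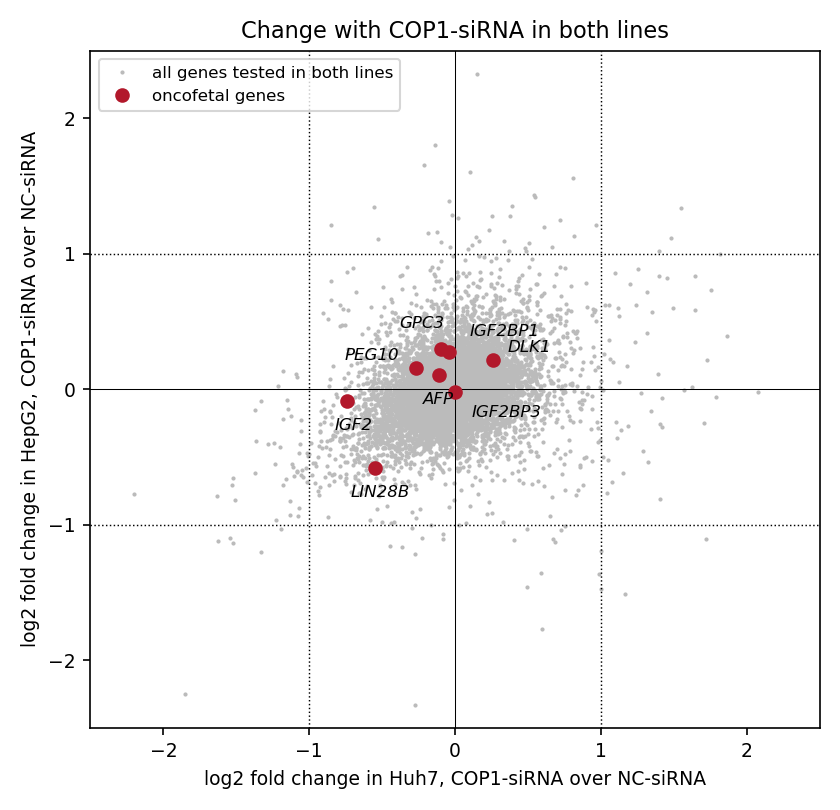
Change with COP1-siRNA in Huh7 (horizontal) and HepG2 (vertical), as log2 fold change of TPM + 1, with 1 point per gene. Grey points are the 11970 genes compared in both lines (2 of them outside the axes), red points the 8 oncofetal genes among them, and dotted lines mark 2-fold. LIN28B was lower in both lines, at −0.55 and −0.58, and IGF2 at −0.74 and −0.08.

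AFP (gene 174), the fetal counterpart of albumin and a serum marker of HCC, lies on chr4:73436221-73456174 of GRCh38, on the plus strand. Its level in Huh7 was 7444 TPM under NC-siRNA and 6907 TPM under COP1-siRNA, and in HepG2 370 and 399 TPM. It ranked 12 and 10 among all genes of the Huh7 libraries, and 360 and 339 in HepG2. Both Huh7 libraries were high and both HepG2 libraries low, and the siRNAs made little difference. Huh7 exceeded HepG2 20.1-fold with NC-siRNA and 17.3-fold with COP1-siRNA. In the limma fit the line difference was 4.22 ± 0.0791 (SE, log2 scale, adjusted p = 1.72e-06). The siRNA difference had a 95% confidence interval from −0.19 to 0.19, with an adjusted p of 1.00.

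The other genes of the AFP locus and its known regulators stood with AFP between the lines. Of this list, 13 of the 17 genes compared were at least 2-fold higher in Huh7 with NC-siRNA and 14 of 18 with COP1-siRNA, and 0 were lower. Over all genes compared, 14.7% and 14% were higher and 27.9% and 26.0% lower. The median difference of the list was 2.69 and 2.13, and limma called 15 of its 18 genes higher and 2 lower in Huh7. Of all 15486 genes fitted, limma called 4223 higher and 7933 lower. GC, the vitamin D-binding protein gene beside AFP and ALB, was at 401 and 355 TPM in Huh7, and at 0 and 0.129 TPM in HepG2. FOXA2, a pioneer factor of the liver, was at 80.1 and 61.3 TPM in Huh7 and at 2.87 and 2.92 TPM in HepG2. NR5A2, a nuclear receptor that activates AFP, was at 33.5 and 27.6 TPM against 1.07 and 1.02 TPM. These genes thus had high values in both Huh7 libraries and low values in both HepG2 libraries. The siRNA contrast took 0 genes of this list past 2-fold in either line.

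GPC3 (gene 2719, chrX:133535745-133985616, minus strand) encodes a heparan sulfate proteoglycan anchored in the membrane, which is used as a tissue marker of HCC. It stood at 439 and 411 TPM in Huh7 with NC-siRNA and COP1-siRNA, and at 212 and 262 TPM in HepG2. The Huh7 libraries were the higher ones, but the gap was 2.07-fold with NC-siRNA and 1.57-fold with COP1-siRNA, on either side of the threshold. The limma line difference was 0.85 ± 0.107 (SE, adjusted p = 0.000612). The siRNA log2 fold changes were −0.09 in Huh7 and 0.30 in HepG2, with a fitted interval from −0.16 to 0.37.

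Among other glypicans and heparan sulfate partners, 4 of the 15 genes compared were at least 2-fold higher in Huh7 with NC-siRNA and 7 were lower, beside 14.7% and 27.9% of all genes. GPC1 was at 0.0187 and 0 TPM in Huh7 and at 10.1 and 11.6 TPM in HepG2. GPC4 was at 0.546 and 0.636 TPM in Huh7 and at 18.97 and 18.08 TPM in HepG2. Both glypicans, named for their large line differences, thus ran opposite to GPC3 between the lines. GPC2 and GPC6 were also lower in Huh7. GPC5 was higher there, at 2.46 and 1.34 TPM against 1.04 and 1.00 TPM in HepG2. SULF2, which trims sulfate groups from heparan sulfate, was also low in Huh7, at 0.0111 and 0.0207 TPM against 29.7 and 23.8 TPM in HepG2. The syndecans SDC1 and SDC4, further membrane proteoglycans, passed 2-fold with COP1-siRNA in 1 line each. For SDC1 the Huh7 values were 99.0 and 43.2 TPM (log2 fold change −1.18), and the HepG2 values 29.4 and 25.1 TPM (−0.22). For SDC4 they were 207 and 262 TPM in Huh7 (0.34), and 35.6 and 77.1 TPM in HepG2 (1.10). The limma adjusted p of the siRNA difference was 0.334 for SDC1 and 0.248 for SDC4.

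DLK1 (gene 8788, chr14:100726892-100738224, plus strand) encodes a membrane protein of hepatoblasts related to the Notch ligands, and it is imprinted. It stood at 6.13 and 7.54 TPM in Huh7 with NC-siRNA and COP1-siRNA, and at 3.77 and 4.53 TPM in HepG2. DLK1 was thus well below the other surface and secreted genes in both lines, and higher with COP1-siRNA in both. The log2 fold changes with COP1-siRNA were 0.26 and 0.21, with a fitted interval from −0.07 to 0.54 and an adjusted p of 0.554. Between the lines limma gave 0.60 ± 0.123 (SE, adjusted p = 0.00473). MEG3 and RTL1, the imprinted neighbours of DLK1, were listed at 0 in every library. Of the Notch genes, 2 of 13 were at least 2-fold higher in Huh7 with NC-siRNA and 7 were lower, beside 14.7% and 27.9% of all genes. JAG1, a Notch ligand, was at 56.6 and 37.6 TPM in Huh7 and at 6.81 and 5.64 TPM in HepG2. HEY1, a target of Notch, had the opposite order, with 2.88 and 2.43 TPM in Huh7 and 190 and 155 TPM in HepG2. NRARP, another Notch target, was at 0.259 and 0.310 TPM against 33.3 and 30.6 TPM.

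IGF2 (gene 3481, chr11:2129112-2149603, minus strand) had a level of 346 TPM under NC-siRNA and 206 TPM under COP1-siRNA in Huh7, and of 39.3 and 37.0 TPM in HepG2. In Huh7 59.7% of its level was left with COP1-siRNA, and in HepG2 94.2%. The Huh7 log2 fold change of −0.74 was the lowest of the 10 genes, and 1.27% of the genes compared in Huh7 were at least as low. It lay under the 2-fold threshold and beyond 1.5-fold. Since limma counts a response in 1 line alone as spread, its siRNA difference was −0.41 ± 0.156 (SE, adjusted p = 0.433). Between the lines IGF2 was 8.80-fold and 5.58-fold higher in Huh7, with a fitted difference of 2.78 ± 0.156 (SE, adjusted p = 2.51e-05). The read-through gene INS-IGF2 and MIR483, which overlap IGF2 on its strand, were listed at 0 in all 4 libraries. The mean coverage of IGF2, the reads over an average base, was 299 and 210 in Huh7 and 35.5 and 41.0 in HepG2. Coverage per TPM, divided by its median in the library, was 0.394 and 0.392 in Huh7 and 0.442 and 0.432 in HepG2. For LIN28B this value lay between 0.413 and 0.415 in all 4 libraries. The median was taken over genes of at least 1 FPKM, a measure proportional to TPM.

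Of the other genes of the IGF axis, 5 of 14 were at least 2-fold higher in Huh7 with NC-siRNA and 3 were lower. Over all genes these shares were 14.7% and 27.9%. IRS1, an adaptor of the IGF1 receptor, was at 23.7 and 22.1 TPM in Huh7 and at 2.40 and 2.55 TPM in HepG2. Its relative IRS4 was listed at 0 in both Huh7 libraries and stood at 209 and 184 TPM in HepG2. IGFBP2, which binds IGF2, was likewise at 0 in Huh7 and at 76.8 and 67.4 TPM in HepG2. These 3 genes were named for having the largest line differences of the list. On the log2(TPM + 1) scale, IGFBP1 was the only gene of this list past 2-fold with COP1-siRNA, with 9.80 and 3.71 TPM in Huh7 (log2 fold change −1.20). Its HepG2 values were 12.4 and 8.98 TPM (−0.43), and the limma adjusted p was 0.246. By the plain ratio IGFBP6, chosen after its values were seen, was 2.03-fold higher with COP1-siRNA in Huh7, at 3.19 and 6.48 TPM.

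H19 (gene 283120, chr11:1995176-2001466, minus strand), a non-coding RNA that shares its imprinting control with IGF2, was at 0 and 0.0268 TPM in Huh7 with NC-siRNA and COP1-siRNA, and at 0.551 and 0.459 TPM in HepG2. It never reached 1 TPM and entered no comparison. Its mean coverage was 0 and 0.0766 in Huh7 and 1.24 and 1.30 in HepG2. These values are too low to order the lines. PEG10 (gene 23089, chr7:94656325-94669695, plus strand), an imprinted gene derived from a retrotransposon, stood at 104 and 86.1 TPM in Huh7 and at 48.8 and 54.6 TPM in HepG2. It was slightly lower with COP1-siRNA in Huh7 (−0.27) and slightly higher in HepG2 (0.16), and the fitted interval ran from −0.35 to 0.24. The line difference was 2.13-fold with NC-siRNA and 1.58-fold with COP1-siRNA, and 0.86 ± 0.119 in the limma fit (SE, adjusted p = 0.000896). Of the other imprinted genes, 1 of the 9 compared was at least 2-fold higher in Huh7 with NC-siRNA and 3 were lower. The shares of all genes were 14.7% and 27.9%. PHLDA2, a placental growth regulator, was at 54.7 and 52.3 TPM in Huh7 and at 4.75 and 4.99 TPM in HepG2. PEG3 and SNRPN were listed at 0 in both Huh7 libraries, and stood at 9.11 and 10.1 TPM and at 12.2 and 15.1 TPM in HepG2.

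LIN28B (gene 389421, chr6:104936999-105083332, plus strand) had a level of 137 TPM under NC-siRNA and 93.3 TPM under COP1-siRNA in Huh7, and of 47.4 and 31.4 TPM in HepG2. The COP1-siRNA library was the lower one in both lines, with 68.2% and 66.2% of the level left. The log2 fold changes of −0.55 and −0.58 were each under 2-fold. Of the genes compared, 3.16% in Huh7 and 1.94% in HepG2 were at least as low. Both held for 63 of the 11970 genes compared in both lines, LIN28B among them. The limma siRNA difference was −0.56 ± 0.0801 (SE, 95% interval −0.76 to −0.37), with an unadjusted p of 0.000464 and an adjusted p of 0.160. Over the settings tried the adjusted p ran from 0.0372, under quantile normalization, to 0.287. Between the lines LIN28B was 2.89-fold and 2.97-fold higher in Huh7, and the fit gave 1.53 ± 0.0801 (SE, adjusted p = 2.01e-05).

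Small interfering RNAs can act on transcripts that match only their seed. The seed of the COP1-siRNA guide strand pairs with CCAAGTT, which occurred in the annotated 3′ UTRs of 10.1% of genes. Among the oncofetal genes it occurred 2 times in AFP and once each in PEG10, LIN28B and SALL4. The sites of LIN28B and AFP are shown as examples, picked with the changes of both genes known, and those of PEG10 and SALL4 are not.
LIN28B, chr6:105082327-105082353, plus strand: cagtgcggccCCAAGTTactgctggtt
AFP, chr4:73455775-73455801, plus strand: gtttccttttCCAAGTTtgcttattta
AFP, chr4:73455944-73455970, plus strand: aaaaatgttcCCAAGTTaaacactatt
A further sequence, AGCAGTC, was picked with earlier results of these libraries known, so that its presence in a lower gene supports nothing. It occurred in 8.07% of genes. Among the oncofetal genes it was found in IGF2, 3 times, and in LIN28B, once. The match of LIN28B and 2 of those of IGF2 are shown.
LIN28B, chr6:105081683-105081709, plus strand: agaacacggaAGCAGTCttagaagcac
IGF2, chr11:2132248-2132274, minus strand: aaaatcacagAGCAGTCagagggaccc
IGF2, chr11:2129755-2129781, minus strand: cagcccgactAGCAGTCtagaggcctg
IGF2, with 3 copies, was at −0.74 in Huh7 and −0.08 in HepG2, and LIN28B, with 1 copy, at −0.55 and −0.58. The part of either sequence in these values was not tested.

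IGF2BP1 (gene 10642, chr17:48997385-49056145, plus strand) and IGF2BP3 (gene 10643, chr7:23310209-23470674, minus strand) encode RNA-binding proteins that stabilize mRNAs, among them those of IGF2 and MYC. IGF2BP1 stood at 83.3 and 80.8 TPM in Huh7 with NC-siRNA and COP1-siRNA, and at 65.1 and 78.9 TPM in HepG2. Of the 8 genes fitted other than SALL4, it alone was not called by limma between the lines (0.19 ± 0.102, SE, 95% interval −0.06 to 0.44, adjusted p = 0.130). IGF2BP3 stood at 73.7 and 73.8 TPM in Huh7 and at 35.8 and 35.3 TPM in HepG2. It was thus nearly level between the siRNAs within each line (0.00 and −0.02) and 2.06-fold and 2.09-fold higher in Huh7, with a limma difference of 1.03 ± 0.0826 (SE, adjusted p = 9.23e-05). The fitted siRNA interval was −0.14 to 0.37 for IGF2BP1 and −0.21 to 0.19 for IGF2BP3.

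Mature let-7 is not measured in these libraries of polyadenylated RNA. In Huh7 the genes with a CTACCTC match had a median log2 fold change of −0.03 with COP1-siRNA (1078 genes), those with 2 or more matches −0.06 (122 genes) and those without −0.004 (9736 genes). In HepG2 the medians were −0.008, −0.005 and −0.010. Of the LIN28 and let-7 list, 4 of 20 genes were at least 2-fold higher in Huh7 with NC-siRNA and 2 were lower. The shares of all genes were 14.7% and 27.9%. With COP1-siRNA 0 genes of the list passed 2-fold in either line. MYCN, a transcription factor that activates LIN28B, was at 59.7 and 49.1 TPM in Huh7, and at 0 and 0.0406 TPM in HepG2. ARID3A, a transcription factor and let-7 target, was at 118 and 103 TPM against 11.6 and 12.2 TPM. CCND2, a cyclin and let-7 target, was listed at 0 in both Huh7 libraries and stood at 8.51 and 10.9 TPM in HepG2. LIN28A, the paralogue of LIN28B, was listed at 0 in all 4 libraries.

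SALL4 (gene 57167, chr20:51782331-51802521, minus strand) had a level of 0.613 TPM under NC-siRNA and 1.45 TPM under COP1-siRNA in Huh7, and of 0.107 and 0.0799 TPM in HepG2. It reached 1 TPM in the Huh7 COP1-siRNA library alone. On the log2(TPM + 1) scale the Huh7 change was 0.60, and by the plain ratio 2.37-fold, so its place relative to 2-fold depends on the added 1. With coverage scaled to the same total in place of TPM the value was 0.31. Its mean coverage was 0.525 and 1.37 in Huh7 and 0.0890 and 0.0919 in HepG2, so that few reads lay over any base of the gene. The limma differences of SALL4, 0.28 for the siRNA and 0.86 for the line, are given without a test. It entered the fit only through the Huh7 COP1-siRNA library, which favoured a higher value with COP1-siRNA and in Huh7. Of the SALL family and the NuRD complex, a corepressor that SALL4 recruits, 0 of 18 genes were at least 2-fold higher in Huh7 with NC-siRNA and 6 were lower, where 14.7% and 27.9% of all genes were. SALL2 was at 11.7 and 7.47 TPM in Huh7 and at 26.2 and 24.9 TPM in HepG2. SALL3 was at 0 in Huh7 and at 1.87 and 1.85 TPM in HepG2. SOX2, a stem cell factor, was at 0.0183 and 0.118 TPM in Huh7 and at 6.96 and 7.60 TPM in HepG2.

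**Figure D3:**
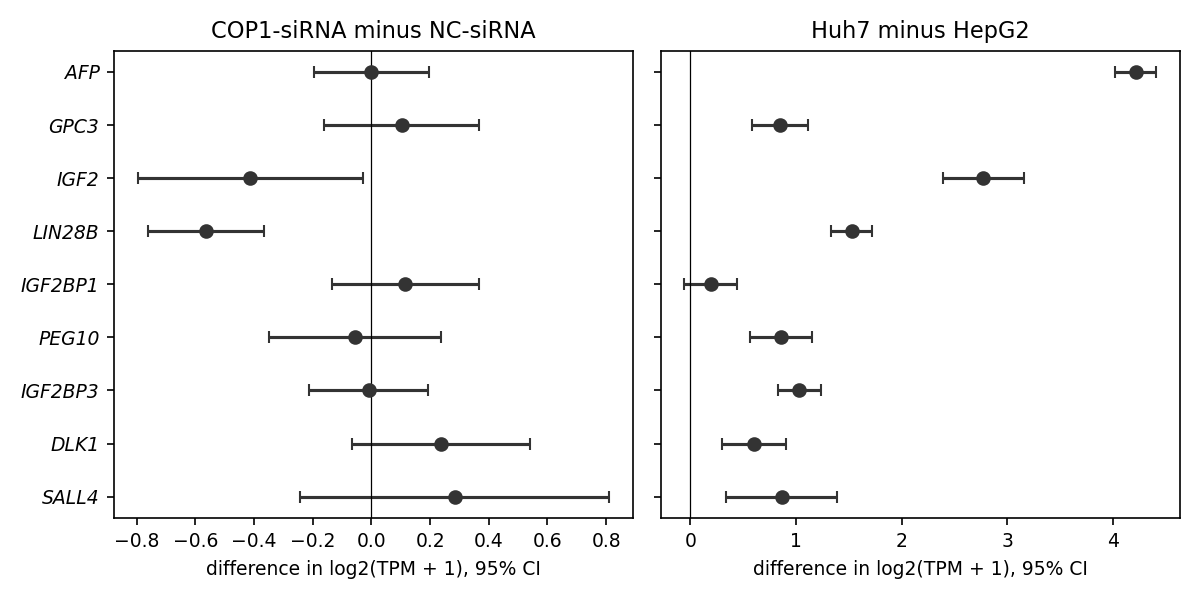
Fitted differences of the 9 oncofetal genes that reached 1 TPM in at least 1 library, from the limma fit over 4 libraries, in log2(TPM + 1) with 95% confidence intervals, for the siRNAs (left) and the lines (right, with another axis range). The siRNA intervals of LIN28B and IGF2 lie below 0 before adjustment, and all line intervals but that of IGF2BP1 lie above 0. SALL4 entered the fit only through the Huh7 COP1-siRNA library, which favoured a higher line difference and a higher siRNA difference.

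Other oncofetal or fetal liver genes were split between the lines, with 7 of 16 at least 2-fold higher in Huh7 with NC-siRNA and 3 lower. Over all genes these shares were 14.7% and 27.9%. SPINK1, a protease inhibitor raised in some HCC, was at 2583 and 2210 TPM in Huh7 and at 4.12 and 3.98 TPM in HepG2. CD24, a surface glycoprotein of progenitor cells, was at 804 and 693 TPM against 4.78 and 3.74 TPM. CDH17, a cadherin of the fetal liver and intestine, was at 4.54 and 6.19 TPM in Huh7 and at 0.0897 and 0.0683 TPM in HepG2. These 3 genes were named for having the largest line differences of the list, and all stood high in the same line as AFP. The 3 genes at least 2-fold lower in Huh7 were AKR1B10, CYP3A7 and ROBO1. Of the adult hepatocyte genes, 7 of 20 could be compared with NC-siRNA, and 2 were at least 2-fold higher in Huh7 and 2 lower. The shares of all genes beside these counts are the 14.7% and 27.9% just given. ARG1, the arginase of the urea cycle, was at 5.69 and 5.80 TPM in Huh7 and at 0.254 and 0.174 TPM in HepG2. TDO2, which starts tryptophan breakdown, was at 2.84 and 2.43 TPM in Huh7 and at 0 and 0.114 TPM in HepG2. HPD, an enzyme of tyrosine breakdown, was at 0.530 and 1.20 TPM in Huh7 and at 58.5 and 80.8 TPM in HepG2. Over all 9 lists together, 2 of the 103 genes compared in Huh7 and 1 of the 117 compared in HepG2 passed 2-fold with COP1-siRNA. Of all genes compared, 1.08% did so in Huh7 and 0.934% in HepG2. For the siRNA limma called 0 genes in any list, and 0 of all genes fitted.

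**Figure D4:**
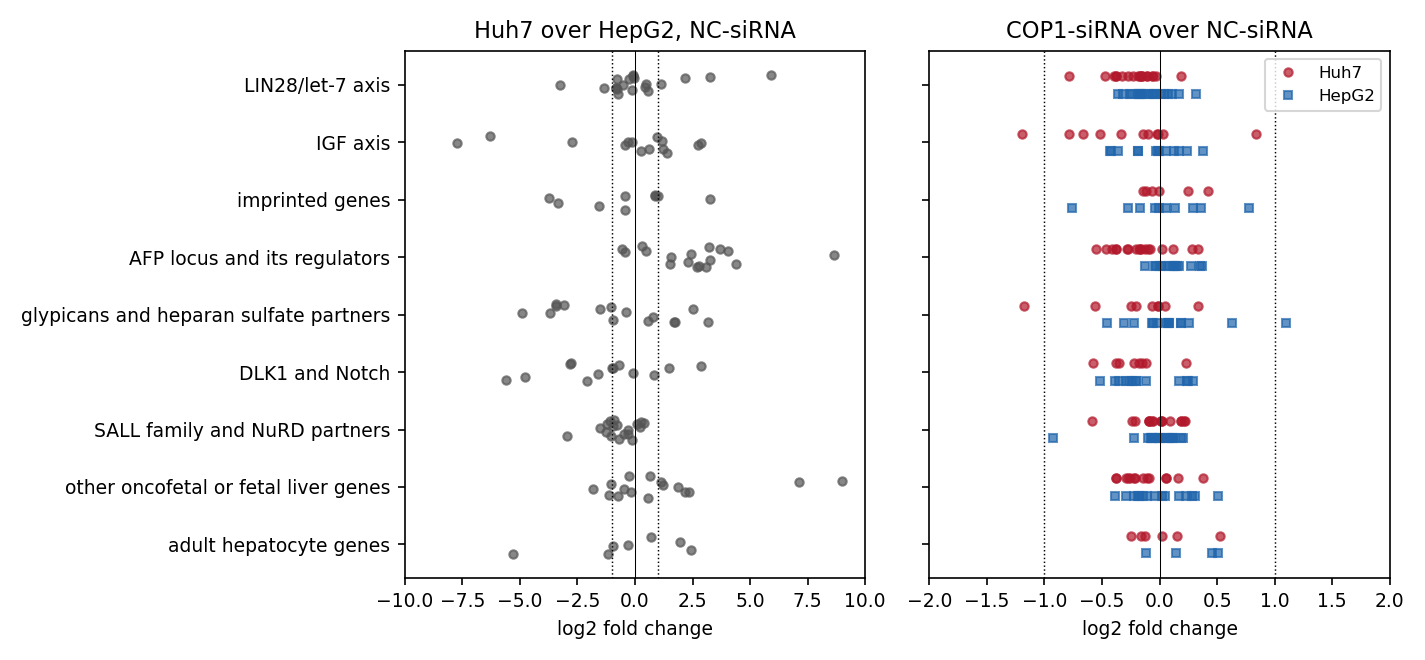
Log2 fold changes of TPM + 1 for the genes of 9 related lists, 1 point per gene compared. The left panel gives Huh7 over HepG2 with NC-siRNA, the right panel COP1-siRNA over NC-siRNA in Huh7 (red circles) and HepG2 (blue squares), and dotted lines mark 2-fold. In the list of the AFP locus and its regulators 13 of 17 genes lie at or beyond 2-fold higher in Huh7, beside 14.7% of all genes. On the right 3 points in all pass 2-fold.

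For the genes whose log2(TPM + 1) spanned at least 1 over the 4 libraries, the genes with the most similar profile were sought by the Euclidean distance between centred log2(TPM + 1) values over 4 libraries. The nearest to AFP was CYP2B6 (distance 0.117), at 19.04 and 15.85 TPM in Huh7 and at 0 and 0.0555 TPM in HepG2, and next came ARHGEF5 (0.126). IGF2 was nearest to FGF19 (0.127), at 8.73 and 4.57 TPM in Huh7 and listed at 0 in HepG2, and to TGFBR2 (0.143), at 130 and 87.7 TPM in Huh7 and 15.5 and 15.1 TPM in HepG2. LIN28B was nearest to SLC45A4 (0.163) and NFIL3 (0.166). NFIL3, a transcription factor, was at 58.6 and 37.0 TPM in Huh7 and at 16.8 and 12.0 TPM in HepG2, lower with COP1-siRNA in both lines as LIN28B was. The nearest of the rest were AADACP1 and ENPEP for GPC3, BCAR3-AS1 and MBOAT4 for PEG10, LCN10 and VAPA for IGF2BP3, and ZNF878 and HYAL4 for SALL4, with distances from 0.0248 to 0.0677. With 4 libraries, many genes can have like profiles.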

How the data were processed

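Each of the 4 libraries has 1 table from the authors, giving coverage, FPKM and TPM by gene number. The TPM deposited are normalized within a library, the FPKM that the authors deposited are proportional to them, and the deposited coverage is the mean number of reads per base, not normalized for depth. The submitters' processing notes name FastQC 0.11.7, Trimmomatic 0.38, HISAT2 2.1.0, StringTie 2.1.3b and edgeR, with the build GRCh38. Libraries were stranded and poly(A)-selected. Read counts were not used here, so the depth is unknown. By the coverage per FPKM, the depth of the COP1-siRNA library over that of NC-siRNA was 1.13 in Huh7 and 1.27 in HepG2.

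The tables hold no symbols. Gene numbers were matched to RefSeq GRCh38.p14, where 96.3% were found, including all 10 genes. Groups came from the sample titles. No test was possible within a pair of libraries. Genes with at least 1 TPM in at least 1 library entered limma 3.58.1 (R 4.3.3) on log2(TPM + 1), with trend, the line and the siRNA as terms and Benjamini-Hochberg adjustment. The libraries are separate samples, but nothing states separate cultures. The 10 genes and the 9 lists were chosen with earlier results of these data known. Named beside them were list genes past 2-fold with COP1-siRNA, up to 3 per list with the largest line difference, the 2 nearest profiles of a gene, overlapping genes, markers and COP1. MEG3, RTL1 and LIN28A were named after their values were seen. The 3′ UTRs were those of 1 GENCODE 29 transcript per gene. Some items examined are not reported here. The scripts (Python 3.11.15, numpy 2.4.6, pandas 2.3.3, matplotlib 3.10.9) were tested on simulated data. Alternatives were a pseudocount of 0.1, FPKM, scaled coverage, quantile normalization, scaling by median of ratios or by the upper quartile, a minimum TPM of 5 or none, a 1.5-fold threshold, protein-coding genes only, repeated gene numbers kept apart and IGF2 summed with INS-IGF2. The plain TPM ratio was added after seeing the data.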

Additional observations from a re-analysis of the deposited data

How the results depend on the processing

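In 503 values of the oncofetal genes under the alternatives, 9 had the opposite sign, all for AFP, IGF2BP1 or IGF2BP3 with COP1-siRNA and none past a threshold. In Huh7 the number of the 10 genes past the threshold with COP1-siRNA went from 0 to 2 at 1.5-fold (IGF2 and SALL4), and to 1 (SALL4) with a pseudocount of 0.1 or the plain ratio. In HepG2 it was 0 under every alternative. Between the lines with NC-siRNA it went from 6 to 3 with FPKM, and with COP1-siRNA from 5 to 8 at 1.5-fold. For the siRNA in limma it went from 0 to 1 (LIN28B) under quantile normalization, where 138 genes in all were called, and 10 in all were called at a minimum TPM of 5. The causes were not tested. Over all genes, 141 passed 2-fold in Huh7 and 135 in HepG2, against 390 and 372 with a pseudocount of 0.1, 411 and 407 by the plain ratio, 57 and 39 with FPKM, 76 and 55 at a minimum TPM of 5, 73 and 52 among protein-coding genes, and 713 and 640 at 1.5-fold. Between the lines with COP1-siRNA 6058 genes passed 2-fold and 9319 passed 1.5-fold. The limma fit takes the lines as 2 pairs, and no block by replicate number could be fitted because no condition had a second library. Leaving out a library leaves limma 3 libraries for 3 parameters and no residual degree of freedom, so it was not run.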
